A study of Homo sapiens with 6 samples.

Results

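Long intergenic noncoding RNA genes were taken as every gene of the deposited expression table whose symbol begins with LINC followed by digits, which gave 161 of the 6641 listed genes. They were measured by RNA-seq in 6 libraries of cultured human non-small cell lung cancer cells, 3 labelled HCC827_Er and 3 labelled HCC827. HCC827, a widely used lung adenocarcinoma cell line, depends on an EGFR gene with an activating deletion, and the submitters set it as the parental line beside a resistant one, with resistance to EGFR tyrosine kinase inhibitors as the subject of the study. The labels of both lines give lung as the tissue and no drug, dose, time or culture condition, and they do not say how HCC827_Er was derived, whether it is 1 clone, or whether its replicates were separate cultures. The p-values therefore measure only the spread between these libraries, which may be technical.

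Long intergenic noncoding RNAs are transcripts that lie apart from protein-coding genes and hold no long open reading frame. Most are transcribed by RNA polymerase II, many are spliced, and their levels are often low and restricted to a few cell types. A few act on the gene next to them, some bind proteins or microRNAs, and for most genes with a LINC symbol no function is known. In lung carcinoma several of them have been studied for their part in growth, invasion and drug response.

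The values are FPKM, fragment abundance corrected for the length of the transcript and the size of the library, so levels can be set side by side between genes. The table is not a neutral sample of the transcriptome: 96.1% of its genes had no overlap between the libraries of the lines, and the rule by which genes entered it is not given in the sources used here. Values over the table added up to between 184633 and 190415 FPKM in HCC827_Er libraries and between 222927 and 224211 FPKM in HCC827 libraries, and no sequencing depth can be read from these partial sums. Of 9 epithelial markers, 7 were listed and summed to between 2870 and 2968 FPKM in HCC827_Er and between 2197 and 2291 FPKM in HCC827. The listed leukocyte markers CD14, CORO1A, CSF1R and LAPTM5 summed to between 16.9 and 22.7 FPKM in HCC827_Er and between 1.81 and 2.47 FPKM in HCC827. COL1A1, COL3A1 and LUM of the fibroblast markers summed to between 9.33 and 11.5 FPKM in HCC827_Er and between 2.46 and 3.35 FPKM in HCC827, and the endothelial CDH5 was at 0.52 to 0.75 FPKM in HCC827_Er and listed at 0 in HCC827. The part of other cell types in the LINC gene values was not tested.

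Most LINC genes were expressed at low levels in both lines. The median LINC gene had a mean of 1.28 FPKM in HCC827_Er and 1.08 FPKM in HCC827, against medians over all listed genes of 4.55 FPKM in HCC827_Er and 3.92 FPKM in HCC827. For the 5241 genes annotated as protein-coding the medians were 6.77 FPKM in HCC827_Er and 5.70 FPKM in HCC827. In the line where it was higher, the mean of 38 LINC genes stayed under 1 FPKM, while 30 reached 10 FPKM and 8 reached 50 FPKM. Together the 161 genes held between 0.488% and 0.534% of the listed FPKM in the HCC827_Er libraries and between 0.706% and 0.742% in the HCC827 libraries.

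The abundant LINC genes weighed most in these sums. The 5 LINC genes of highest mean level over both lines, LINC02582, LINC00665, LINC01013, LINC03061 and LINC00882, made up between 31.4% and 32.7% of the LINC sum in HCC827_Er libraries and between 65.2% and 67.0% in HCC827 libraries. All 5 were lower in HCC827_Er by the test described below, and a mean over both lines favours genes that are high in HCC827. They are also the 5 highest in HCC827, but only 2 of them, LINC02582 and LINC00665, are among the 5 highest in HCC827_Er, where LINC02889, LINC00342 and LINC01002 are the others. Ranked within HCC827_Er, the 5 highest made up between 39.6% and 41.2% of the LINC sum of its libraries. LINC02582, studied elsewhere for radioresistance of breast cancer cells, was the most abundant in either line, at 130, 123 and 124 FPKM in HCC827_Er and 473, 456 and 443 FPKM in HCC827. LINC00665, a transcript described as elevated in several carcinomas, had 69.4, 63.8 and 60.3 FPKM in HCC827_Er and 237, 220 and 208 FPKM in HCC827. LINC01013 had 51.0, 39.4 and 45.2 FPKM in HCC827_Er and 188, 174 and 174 FPKM in HCC827. In each of the 3 genes, the highest HCC827_Er library lay far below the lowest HCC827 library. LINC03061 averaged 43.8 ± 0.437 FPKM in HCC827_Er and 125 ± 3.03 FPKM in HCC827, and LINC00882 averaged 25.4 ± 2.70 FPKM in HCC827_Er and 82.1 ± 5.21 FPKM in HCC827 (SD, n = 3 each).

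**Figure D1:**
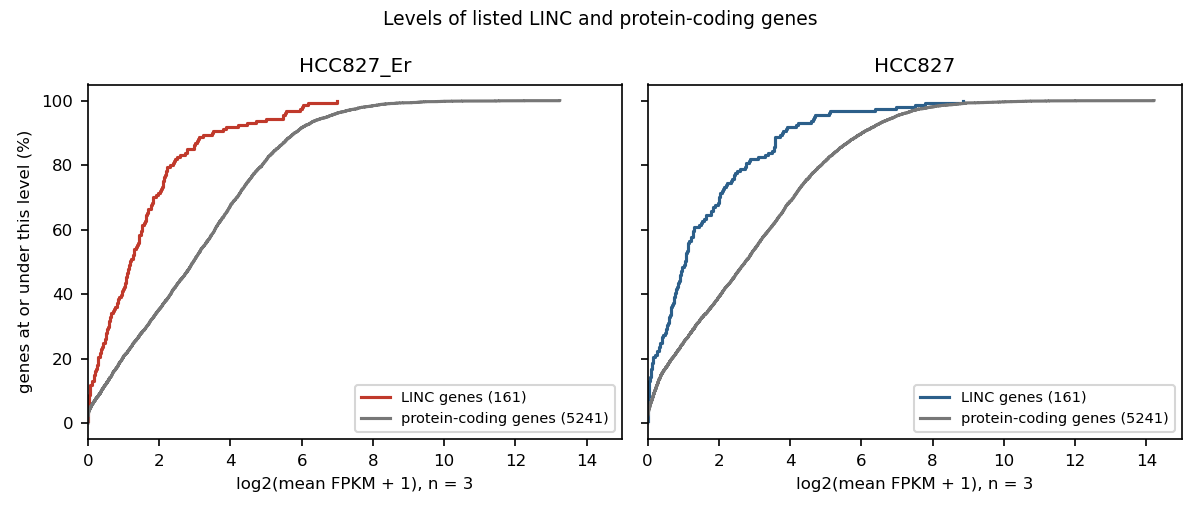
Share of genes, in percent, at or under each level, log2(mean FPKM + 1) over 3 libraries, for the 161 LINC genes (coloured) and the 5241 protein-coding genes (grey) in HCC827_Er (left) and HCC827 (right). The LINC curves lie to the left of the coding ones over most of the range, with medians of 1.28 FPKM in HCC827_Er and 1.08 FPKM in HCC827.

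HCC827_Er was compared with HCC827 to find which LINC genes differ between the resistant and the parental line. A gene was tested if it reached 1 FPKM in at least 3 of the 6 libraries, and was called if limma gave a Benjamini-Hochberg adjusted p under 0.05, over all 5276 genes tested, with an absolute difference of at least 1 on the scale of log2(FPKM + 1). This scale understates the change of low genes. Of the 161 LINC genes, 103 were tested and 58 were not. Among the tested genes 28 were called higher in HCC827_Er, where 24.7% of all tested genes were, and 31 were called lower, where 19.7% of all tested genes were. The 59 called genes are 57.3% of those tested, against 44.4% of all tested genes. This order turns with the pseudocount: at 5 it was 15.5% of LINC genes and 20.6% of all, and at 0.1 it was 80.6% of LINC genes and 56.9% of all. The median difference was -0.38 over the tested LINC genes and 0.43 over all tested genes. The LINC median depends on the level minimum: it was 0.17 with a minimum of 0.5 FPKM and 0.21 with none, against 0.44 and 0.30 over all genes in those fits. The median size of the difference without its sign was 1.08 for the LINC genes and 0.92 for all. An adjusted p under 0.05 alone was reached by 101 of the 103, as by 98.3% of all tested genes.

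Of the tested LINC genes 35 passed the level minimum through the libraries of 1 line only, 18 through HCC827_Er and 17 through HCC827, and such genes had to differ between the lines. How many of all tested genes passed this way was not counted, and the shares called given above are partly set by the minimum. With no minimum 42.2% of LINC genes and 36.5% of all genes were called. The number of calls in each direction depends on how libraries are scaled. Dividing by median ratios shifted the HCC827_Er minus HCC827 difference by -0.34 and gave 18 LINC genes called higher and 38 called lower, while scaling to equal sums shifted it by 0.25 and gave 36 higher and 24 lower. The whole table turned the same way. Of all 5276 tested genes, 896 were called higher and 1657 lower with median ratios, and 1825 higher and 794 lower with equal sums. Under all 3 scalings 18 LINC genes were called higher and 24 lower, and the same count over all tested genes is not given here. In bulk RNA, fewer cells that make a transcript and less of it per cell cannot be told apart.

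**Figure D2:**
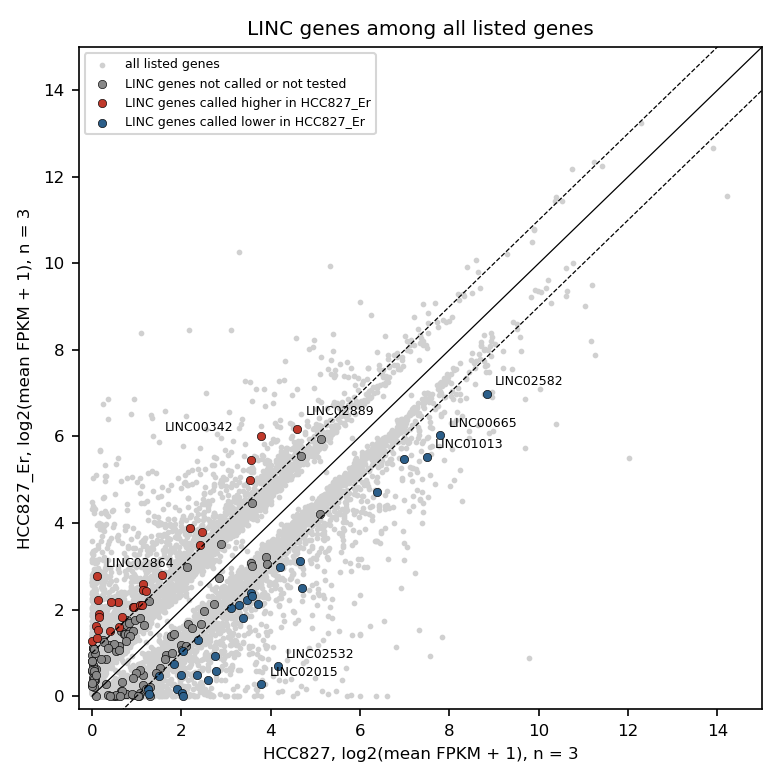
Mean level of each listed gene, log2(mean FPKM + 1) over 3 libraries, in HCC827_Er (vertical axis) and HCC827 (horizontal axis), with LINC genes outlined. Dashed lines mark a difference of 1. Genes called higher are red and genes called lower are blue; since calls use the mean of log2 values and the axes the log2 of means, called genes near a difference of 1, such as LINC02298 and LINC00937, can lie just inside a dashed line. Of all tested genes 44.4% were called in either direction, and most of the others lie between the dashed lines.

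The deepest fall was that of LINC02015, a gene on chromosome 3 at chr3:177816865-177899224 on the plus strand. It had 0.18, 0.27 and 0.20 FPKM in HCC827_Er and 13.0, 12.5 and 12.8 FPKM in HCC827, a difference of -3.50 ± 0.10 (SE) with an adjusted p of 1.01e-08 in limma. Its mean was 59.1-fold lower in HCC827_Er. LINC02532, on chromosome 6, had 0.76, 0.93 and 0.18 FPKM in HCC827_Er and 16.3, 15.6 and 18.6 FPKM in HCC827, a difference of -3.48 ± 0.19 with an adjusted p of 2.95e-07 in limma. These were transcripts of more than 10 FPKM in every HCC827 library that stayed under 1 FPKM in every HCC827_Er library. LINC02981, at chr7:26398593-26494256 on the plus strand, had 0.50, 0.06 and 0.34 FPKM in HCC827_Er and 5, 5.61 and 4.52 FPKM in HCC827, a difference of -2.23 ± 0.15 with an adjusted p of 1.28e-06 in limma. LINC00472, studied as a transcript lost in breast tumours, had 0.33, 0.47 and 0.69 FPKM in HCC827_Er and 6.44, 5.62 and 5.32 FPKM in HCC827 and differed by -2.19. Reads of LINC00472 cannot be assigned without doubt, since a second annotated gene overlaps its exons on the same strand. LINC02015, LINC02532, LINC02981 and LINC00472 passed the level minimum through HCC827 alone. They therefore had to differ between the lines, and their p-values add no support.

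Other falls ended at levels in HCC827_Er that ranged widely. LINC01322 averaged 4.62 ± 0.905 FPKM in HCC827_Er and 25.1 ± 1.58 FPKM in HCC827 (SD, n = 3 each), a difference of -2.23. LINC02582 differed by -1.85 ± 0.05 (SE) with an adjusted p of 5.26e-09 in limma, LINC01013 by -1.97 and LINC00665 by -1.77. The HCC827_Er means of these 3 abundant transcripts were between 0.253 and 0.291 of their HCC827 means. LINC00513, at 1.30, 0.65 and 0.79 FPKM in HCC827_Er and 6.42, 5.53 and 5.31 FPKM in HCC827, differed by -1.83. LINC02605, on chromosome 8, had 0.24, 0.46 and 0.53 FPKM in HCC827_Er and 3.90, 3.97 and 4.37 FPKM in HCC827. LINC02274, on chromosome 14, was listed at 0 in HCC827_Er replicates 1 and 3, with 0.13 FPKM in replicate 2, and had 2.47, 3.50 and 3.09 FPKM in HCC827. None of these genes overlapped between the lines, as was so for 97.5% of all LINC genes and 96.1% of all listed genes. LINC02605 and LINC02274 passed the level minimum through HCC827 alone.

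The largest rise was that of LINC02864, on chromosome 18, with 5.77, 7.63 and 4.23 FPKM in HCC827_Er and 0.24 FPKM in HCC827 replicate 3, the other two HCC827 libraries being listed at 0. Its difference was 2.65 ± 0.19 (SE) with an adjusted p of 1.73e-06 in limma. LINC02864 passed the level minimum through HCC827_Er alone, so it had to differ and this p-value adds no support. LINC00342, described as elevated in non-small cell lung cancer, was abundant in HCC827_Er, at 62.4, 64.3 and 65.1 FPKM in HCC827_Er and 11.8, 12.2 and 14.1 FPKM in HCC827. Its difference was 2.25 ± 0.08 with an adjusted p of 2.39e-08 in limma, a 5.03-fold higher mean. The transcript of LINC00342 aligns over its whole length, at up to 99.5% identity, with the listed gene APPAT, which averaged 24.4 FPKM in HCC827_Er and 11.2 FPKM in HCC827, so the split of reads between them is uncertain. LINC02246, on chromosome 21, had 40.8, 42.0 and 46.4 FPKM in HCC827_Er and 10.9, 8.99 and 12.5 FPKM in HCC827, a difference of 1.91 ± 0.11. Another annotated gene shares exon sequence with LINC02246 on the same strand, so its reads are uncertain too. LINC02889, at chr7:17405479-17558909 on the minus strand, had 67.2, 77.2 and 67.9 FPKM in HCC827_Er and 24.2, 22.1 and 23.1 FPKM in HCC827, a difference of 1.57 ± 0.07 with an adjusted p of 1.45e-07 in limma. It was the most abundant LINC gene of those called higher.

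LINC01106, on chromosome 2, averaged 30.8 ± 2.35 FPKM in HCC827_Er and 10.7 ± 0.489 FPKM in HCC827 (SD, n = 3 each), a difference of 1.44. LINC01123, a near-copy of it on the same chromosome that aligns with 96.2% of its transcript at up to 99.9% identity, averaged 12.9 ± 0.528 FPKM in HCC827_Er and 4.50 ± 0.710 FPKM in HCC827, a difference of 1.34, and reads may be shared between them. LINC01547, at chr21:44932814-44939913 on the minus strand, had 5.30, 5.41 and 4.28 FPKM in HCC827_Er and 1.38, 1.37 and 0.85 FPKM in HCC827, a difference of 1.45 ± 0.14 with an adjusted p of 1.43e-05 in limma. LINC01610 rose with a wider spread: it had 15.8, 14.7 and 10.6 FPKM in HCC827_Er and 2.43, 2.62 and 5.65 FPKM in HCC827. LINC01564 also varied among HCC827_Er libraries, at 2.53, 5.76 and 2.30 FPKM, and had 0.28, 0.67 and 0.54 FPKM in HCC827. Near-absent in HCC827 were LINC02541, with 2.78, 2.80 and 2.67 FPKM in HCC827_Er and 0.12, 0.17 and 0.03 FPKM in HCC827, and LINC02967, with 2.56, 2.50 and 2.53 FPKM in HCC827_Er and 0.06, 0 and 0.26 FPKM in HCC827. LINC01214 had 4.13, 2.00 and 4.92 FPKM in HCC827_Er and reached 0.29 FPKM in HCC827 replicate 3 alone. LINC01564, LINC02541, LINC02967 and LINC01214 passed the level minimum through HCC827_Er only.

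**Figure D3:**
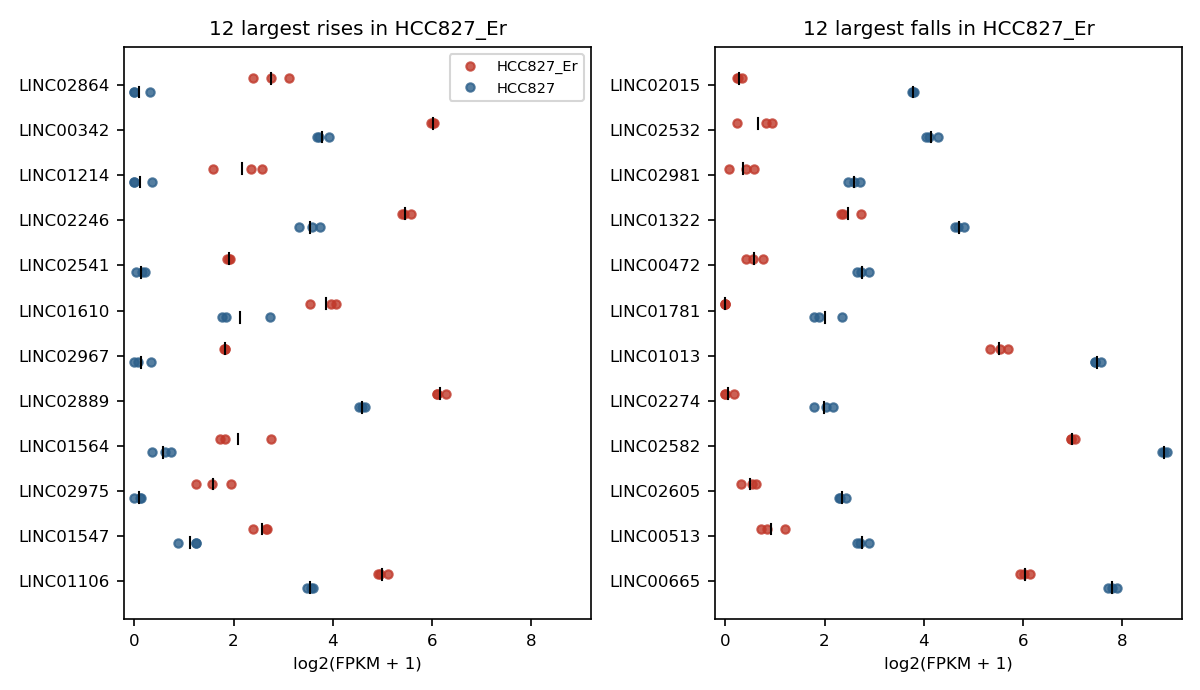
Level of each of the 12 LINC genes with the largest rises (left) and the 12 with the largest falls (right) in every library, as log2(FPKM + 1); a black tick marks the mean of the 3 plotted values of a line. In all 24 genes the 3 HCC827_Er points and the 3 HCC827 points do not overlap. The genes were chosen by the size of their difference, and 97.5% of all LINC genes and 96.1% of all listed genes do not overlap.

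Promoters of a pair of LINC genes that fell, LINC02015 and LINC02981, and a pair that rose, LINC02889 and LINC01547, are shown as examples. They do not stand for all genes that moved the same way. Each window runs from 250 bases before to 50 bases after the first RefSeq start on GRCh38.p14 and reads 5′ to 3′ on the gene's strand. Capitals mark the motifs CCAAT and GGGCGG, each in either orientation. No marked stretch overlaps another. LINC02015 is shown for chr3:177816615-177816914 (plus strand), LINC02981 for chr7:26398319-26398618 (plus strand), LINC02889 for chr7:17558860-17559159 (minus strand) and LINC01547 for chr21:44939864-44940163 (minus strand).
LINC02015: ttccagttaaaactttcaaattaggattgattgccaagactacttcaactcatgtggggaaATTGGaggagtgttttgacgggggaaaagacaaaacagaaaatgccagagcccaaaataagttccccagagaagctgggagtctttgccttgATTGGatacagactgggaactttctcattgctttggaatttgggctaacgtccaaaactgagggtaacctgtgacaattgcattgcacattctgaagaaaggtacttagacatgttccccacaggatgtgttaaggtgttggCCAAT
LINC02981: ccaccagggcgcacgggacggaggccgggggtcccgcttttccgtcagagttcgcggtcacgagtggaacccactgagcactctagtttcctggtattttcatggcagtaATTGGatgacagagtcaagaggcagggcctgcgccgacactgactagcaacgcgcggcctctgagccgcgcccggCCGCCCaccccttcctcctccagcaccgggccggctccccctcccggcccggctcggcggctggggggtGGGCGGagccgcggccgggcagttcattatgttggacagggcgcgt
LINC02889: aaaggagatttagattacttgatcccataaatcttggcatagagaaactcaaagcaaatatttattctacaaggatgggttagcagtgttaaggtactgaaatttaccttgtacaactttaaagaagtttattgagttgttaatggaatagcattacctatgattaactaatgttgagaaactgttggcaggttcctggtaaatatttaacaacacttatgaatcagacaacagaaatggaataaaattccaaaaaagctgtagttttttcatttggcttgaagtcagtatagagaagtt
LINC01547: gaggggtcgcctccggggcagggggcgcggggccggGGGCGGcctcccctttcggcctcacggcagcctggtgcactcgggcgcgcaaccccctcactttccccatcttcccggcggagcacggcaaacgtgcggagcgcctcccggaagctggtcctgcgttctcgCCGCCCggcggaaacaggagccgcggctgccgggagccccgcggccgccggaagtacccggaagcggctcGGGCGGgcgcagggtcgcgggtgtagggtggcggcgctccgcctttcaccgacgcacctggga
The LINC02015 and LINC02889 windows hold 2 and 0 CG dinucleotides, while those of LINC02981 and LINC01547 hold 30 and 42. In these chosen examples each pair thus joins a CG-poor start to a CG-rich one. CCAAT was found in the windows of LINC02015 and LINC02981, GGGCGG in those of LINC02981 and LINC01547, and neither in that of LINC02889.

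Promoters of 103 of the 161 LINC genes could be matched by symbol in the RefSeq table, which holds 27305 genes. Their median was 6 CG dinucleotides in the window, against 14 over all promoters. It was 8 for LINC genes called higher and 5.5 for those called lower. GGGCGG, the core of Sp1 and KLF sites, was in 27.2% of LINC promoters and 44.6% of all promoters, and CCAAT in 42.7% of LINC promoters and 35.7% of all. TATAAA was in 14.6% of LINC promoters and 11.95% of all, TGACTCA, the AP-1 motif, in 13.6% and 4.92%, TGTTTAC, a forkhead motif, in 5.83% and 3.41%, and CACGTG, an E-box, in 6.80% and 7.43%. AACCGGTT, a grainyhead-like motif, was in 0 of the LINC promoters and 0.117% of all. Each was searched on both strands. Among LINC genes called higher, 16 had a promoter in the table and 25% of these held CCAAT, and among those called lower 20 had one and 60% of these held it. CCAAT had the widest split of the motifs searched. TGACTCA was in 6.25% of the promoters of genes called higher and 5% of those called lower. GGGCGG was in 25% and 30% of them, TATAAA in 12.5% and 10%, CACGTG in 12.5% and 10%, and TGTTTAC in 6.25% and 0%. These shares describe letters in a window and say nothing of binding.

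A stricter question is whether a LINC gene was found in 1 line only, set as at least 1 FPKM in all 3 libraries of that line and at most 0.1 FPKM in all 3 of the other. LINC02975 and LINC02438 met this for HCC827_Er, where 1.54% of all listed genes did, and LINC01781 and LINC02188 for HCC827, where 1.17% of all listed genes did. LINC02975 had 1.97, 1.37 and 2.86 FPKM in HCC827_Er and 0.09, 0 and 0.10 FPKM in HCC827, and LINC02438 had 1.16, 1.83 and 1.31 FPKM in HCC827_Er and was listed at 0 in all HCC827 libraries. LINC01781 was listed at 0 in all HCC827_Er libraries and had 4.08, 2.72 and 2.47 FPKM in HCC827, and LINC02188 had 0.01, 0.01 and 0.09 FPKM in HCC827_Er and 2.08, 1.03 and 1.14 FPKM in HCC827. All 4 genes were low even in the line that had them. The count for HCC827_Er became 4 without HCC827_Er replicate 3, 5 without HCC827 replicate 3, and 3 without HCC827_Er replicate 2, HCC827 replicate 1 or HCC827 replicate 2. The count for HCC827 became 4 without HCC827_Er replicate 2 or HCC827 replicate 3.

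Most LINC genes listed at 0 throughout a line were too low to test. Listed at 0 in all 3 HCC827_Er libraries were 9 LINC genes, where 2.79% of all listed genes were, and their HCC827 means ran between 0.06 and 3.09 FPKM with a median of 0.55. Listed at 0 in all 3 HCC827 libraries were 7, where 2.91% of all listed genes were, and their HCC827_Er means ran between 0.203 and 1.43 FPKM with a median of 0.51. In each set 1 gene was tested, LINC01781 in the first and LINC02438 in the second. The depth of the libraries is unknown, and a listed 0 can be a failed estimate, so no fold is given for these genes.

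**Figure D4:**
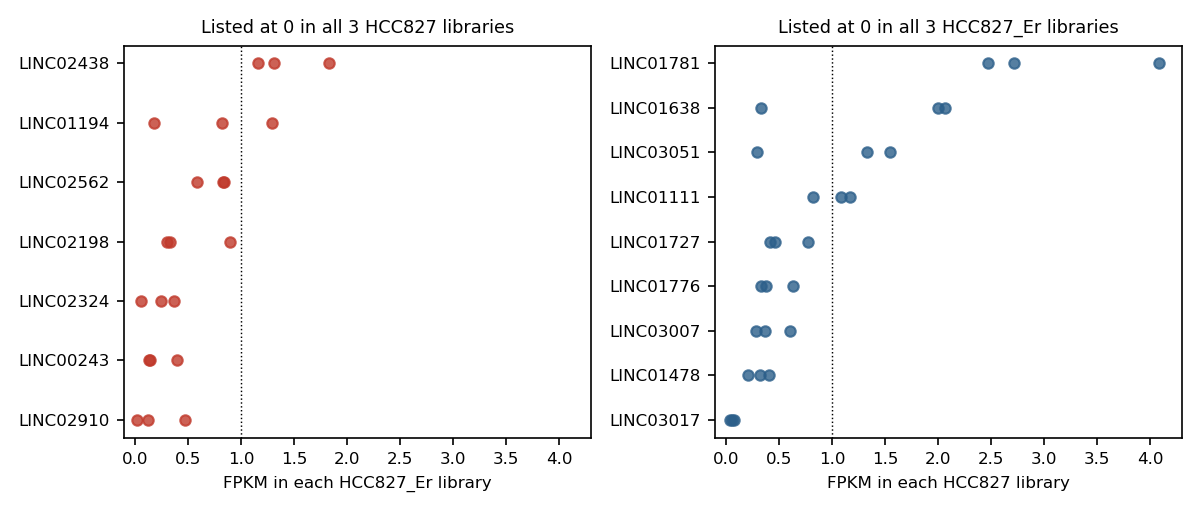
Level in each library of the LINC genes listed at 0 in all 3 libraries of a line, as FPKM in the line that has them, with genes at 0 in HCC827 on the left and genes at 0 in HCC827_Er on the right. The dotted line marks 1 FPKM. The 7 genes on the left reach a mean of 1.43 FPKM in HCC827_Er, and the 9 on the right reach a mean of 3.09 FPKM in HCC827.

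Across all 161 genes, whether tested or not, 81 had every HCC827_Er library above every HCC827 library and 76 had every one below, together 97.5% of LINC genes against 96.1% of all listed genes. The 4 that overlapped, singled out after their values were seen, were LINC01569, LINC02615, LINC02027 and LINC01226. LINC01569 had 6.20, 6.47 and 4.11 FPKM in HCC827_Er and 6.30, 5.28 and 6.90 FPKM in HCC827, and its difference of -0.13 had an adjusted p of 0.448 in limma. LINC01226 was at 1.02, 0.88 and 1.25 FPKM in HCC827_Er, and at 1.25, 0.02 and 0.09 FPKM in HCC827. LINC genes varied more between libraries of a line than other genes did. The median coefficient of variation of the tested LINC genes was 19.9% in HCC827_Er and 13.5% in HCC827, against 10.6% in HCC827_Er and 9.76% in HCC827 over all tested genes. At a mean of 1 to 10 FPKM, the medians for LINC genes were 21.8% in HCC827_Er (77 genes) and 15.1% in HCC827 (57 genes). Protein-coding genes at that level had 13.8% in HCC827_Er and 12.5% in HCC827. At a mean of 10 to 1000 FPKM the medians were closer, at 7.62% in HCC827_Er and 7.74% in HCC827 for LINC genes and 6.92% in HCC827_Er and 5.83% in HCC827 for protein-coding genes.

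Near the call limit, LINC00937 and LINC02298 lay just inside and LINC02484 and LINC02593 just outside. LINC02298 had 2.51, 3.31 and 4.14 FPKM in HCC827_Er and 0.77, 0.66 and 2.07 FPKM in HCC827, a difference of 1.04, which fell under the limit at 0.90 without HCC827_Er replicate 3, at 0.92 without HCC827 replicate 1 and at 0.87 without HCC827 replicate 2. LINC00937, at 1.02, fell under it at 0.95 without HCC827_Er replicate 1, 0.89 without HCC827_Er replicate 2 and 0.78 without HCC827 replicate 1. LINC02484 differed by a value that rounds to 1.00 but lies under 1, and LINC02593 by -0.94. Both LINC00937 and LINC02298 were also not called after median-ratio scaling, while LINC02593 was called lower there.

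Of the LINC genes most studied in lung carcinoma that are in the table, LINC00511 had 43.5, 48.5 and 45.5 FPKM in HCC827_Er and 23.8, 25.6 and 24.5 FPKM in HCC827. Its 1.86-fold higher mean, a difference of 0.87 ± 0.07 (SE) with an adjusted p of 3.29e-06 in limma, was under the size required for a call, and it was called higher only after scaling to library sums. LINC00460, studied for invasion of carcinoma cells, had 1.84, 2.18 and 3.17 FPKM in HCC827_Er and 1.15, 1.19 and 0.51 FPKM in HCC827, a difference of 0.80 that was not called. LINC00958 was too low to test, at 0.38, 0.32 and 0.27 FPKM in HCC827_Er and 0.04, 0 and 0.05 FPKM in HCC827.

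In GENCODE 29, matched by identifier, 139 of the LINC genes are annotated as lincRNA, 12 as processed transcript, 4 as antisense, 2 as sense overlapping and 2 as protein-coding, and 2 are not in that release. LINC transcripts were shorter and had fewer exons than coding ones: the longest transcript had a median of 3 exons and 2052 bases, against 8 exons and 3689 bases for the listed coding genes. Despite the name, 75 overlap another annotated gene and 35 share exon sequence with one, on either strand. Whether the counting used strand is not given in the sources used here, so reads of these genes and of their partners cannot be told apart. Leaving out the LINC genes that overlap another gene left 16 called higher and 16 lower. This removes genes and changes no call, so the counts are of fewer genes.

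LINC genes were next set beside the nearest listed protein-coding gene on each side within 100 kb, since some act on, or share regulation with, the gene beside them. A coding gene that overlaps the LINC gene was counted as a neighbour too. Such an overlap can be in exons on the same strand, as for LINC00664 and ZNF429, where reads may be shared. A neighbour of either kind was found for 77 LINC genes, in 99 pairs. In 94 pairs both genes had no overlap between the lines, and 76.6% of these pairs moved in the same direction. Among coding genes set beside their own coding neighbours, 72.4% of 4572 entries did. A coding pair can be entered from each of its genes, so these entries are not all distinct pairs. In 21 pairs both genes were called, and 19 of these, 90.5%, moved in the same direction, where 73.7% of 795 coding entries did. This count was 19 of 21 after median-ratio scaling and 22 of 25 after scaling to sums. Some LINC genes enter with a neighbour on each side, so pairs are not independent, and the difference between the shares was not tested.

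The closest pair in which both genes were called was LINC01547 with ITGB2, the integrin beta subunit of leukocytes. The ITGB2 gene begins 825 bases beyond the end of LINC01547 on the same strand. ITGB2 averaged 13.7 ± 1.66 FPKM in HCC827_Er and 3.33 ± 1.08 FPKM in HCC827 (SD, n = 3 each), a difference of 1.79 beside 1.45 for LINC01547. LINC02981 lies 24264 bases from SNX10, an endosomal sorting nexin, on the same strand, and SNX10 averaged 8.01 ± 0.804 FPKM in HCC827_Er and 97.8 ± 4.84 FPKM in HCC827, a difference of -3.46. LINC02967 lies 16247 bases from CST7, which encodes cystatin F, and CST7 averaged 17.0 ± 1.55 FPKM in HCC827_Er and 0.290 ± 0.331 FPKM in HCC827. Within each of these pairs both genes moved the same way. LINC01564 lies 11410 bases from GCLC, the catalytic subunit of the first enzyme of glutathione synthesis, which averaged 35.9 ± 5.28 FPKM in HCC827_Er and 13.1 ± 0.785 FPKM in HCC827. LINC00342 lies 20704 bases from ANKRD36C, at 16.6 ± 2.31 FPKM in HCC827_Er and 3.54 ± 1.61 FPKM in HCC827, and LINC02605 lies 32006 bases from IL7, a lymphocyte growth factor, at 0.960 ± 0.346 FPKM in HCC827_Er and 11.8 ± 2.76 FPKM in HCC827.

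LINC02889 and LINC02246 had neighbours that moved the same way but were not called: AHR, the aryl hydrocarbon receptor, differed by 0.97 and lies 59327 bases from LINC02889, and NRIP1, a nuclear receptor corepressor, differed by 0.90 and lies 42683 bases from LINC02246. For LINC00511 the reverse held: SLC39A11, a zinc transporter 5477 bases away, was called higher with a difference of 2.15, and LINC00511 was not called. SAMD11, 2912 bases from LINC02593, was called lower with a difference of -1.61.

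Pairs chosen after their values were seen show the range of this pattern. LINC01291 and LINC01293, which lie 1840 bases apart on chromosome 2, were both called higher, beside HK2, the hexokinase that traps glucose in the cell, at 22.2 ± 0.0557 FPKM in HCC827_Er and 5.43 ± 0.221 FPKM in HCC827. After median-ratio scaling LINC01291 was not called, at 0.93. LINC03060 lies 9897 bases from AKR1B1, the aldose reductase, which averaged 77.5 ± 3.83 FPKM in HCC827_Er and 1345 ± 32.2 FPKM in HCC827, and differed by -1.09 where AKR1B1 differed by -4.10, though LINC03060 was not called after scaling to library sums, at -0.91. LINC01474 lies between ALDH1A1, a retinal dehydrogenase, and TMC1, a channel subunit of hearing, and was listed at 0 in HCC827_Er replicates 1 and 3 and at 0.37 FPKM in replicate 2, with 2.42, 2.66 and 3.08 FPKM in HCC827. ALDH1A1 averaged 0.840 ± 0.462 FPKM in HCC827_Er and 883 ± 27.7 FPKM in HCC827, and TMC1 averaged 4.39 ± 0.565 FPKM in HCC827_Er and 0.853 ± 0.343 FPKM in HCC827. LINC01474 thus moved with ALDH1A1 and opposite to TMC1. The other opposite pair was LINC01012, which was called higher, with the histone gene H2AC13, which was called lower. LINC01012 was not called after median-ratio scaling, at 0.89.

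**Figure D5:**
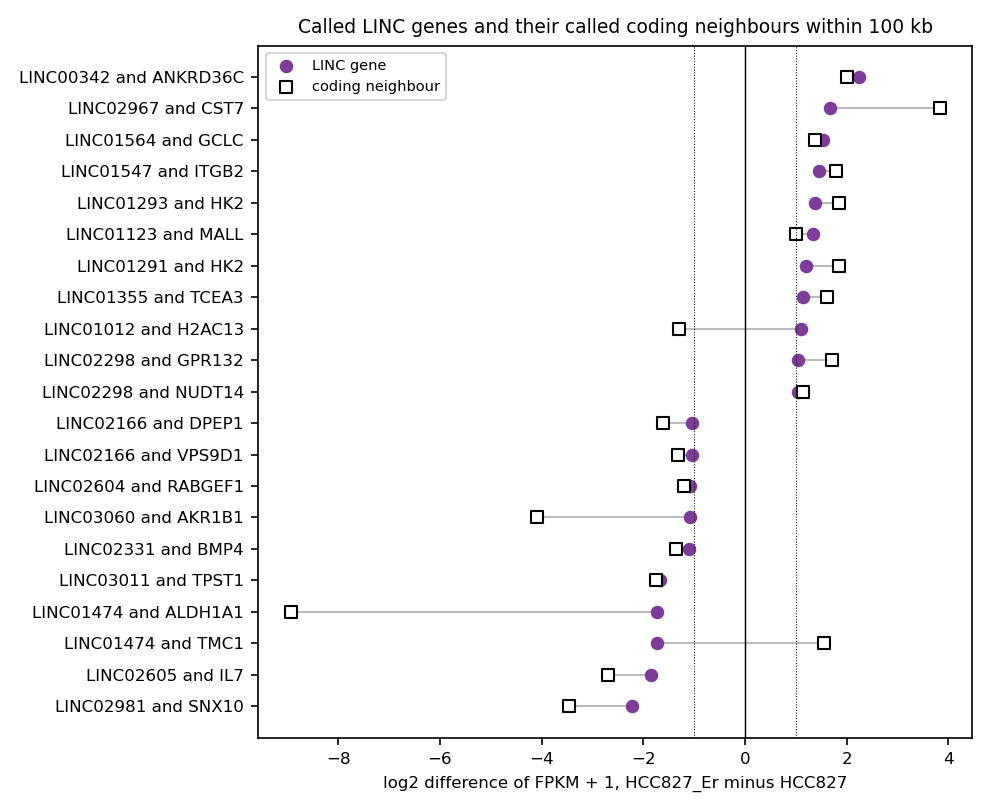
Difference on the scale of log2(FPKM + 1), HCC827_Er minus HCC827, of each called LINC gene (filled circle) and of its called coding neighbour within 100 kb (open square), joined by a line. In 19 of the 21 pairs both symbols lie on the same side of 0, and ALDH1A1 stands farthest out.

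Neighbouring LINC genes did not always move together. Of 8 pairs of LINC genes within 100 kb of each other 5 moved the same way and 3 opposite ways. LINC02864 and LINC02582, which lie 60461 bases apart on chromosome 18, were the largest rise and the most abundant transcript that fell. LINC01303 and LINC03033, which overlap on opposite strands on chromosome 14, were both called lower: LINC03033 averaged 7.75 ± 1.42 FPKM in HCC827_Er and 24.1 ± 2.01 FPKM in HCC827, and LINC01303 averaged 6.85 ± 2.64 FPKM in HCC827_Er and 17.5 ± 2.01 FPKM in HCC827 (SD, n = 3 each), where the call of LINC01303 was lost at -0.98 without HCC827_Er replicate 3. LINC01213 moved up with LINC01214, 25203 bases away, at 1.86, 1.14 and 0.46 FPKM in HCC827_Er and 0, 0.05 and 0 FPKM in HCC827.

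By chromosome, LINC genes on chromosomes 2, 7 and 14 were singled out after their values were seen. On chromosome 2, 6 of 7 tested LINC genes were called higher and 0 lower, beside 109 higher and 40 lower of 320 other tested genes there. On chromosome 7, 1 of 12 was called higher and 5 lower, beside 46 higher and 63 lower of 232 other tested genes. On chromosome 14, 2 of 8 were called higher and 6 lower, beside 83 higher and 15 lower of 247 other tested genes. The higher calls on chromosome 14 were LINC02298 and LINC02301, and without HCC827 replicate 2 neither was called. LINC02301 had 8.05, 1.36 and 1.07 FPKM in HCC827_Er and 0.66, 0.25 and 0.10 FPKM in HCC827, and its call was also lost without HCC827_Er replicate 1, at 0.75, and without HCC827 replicate 3, at an adjusted p of 0.0613 in limma. After median-ratio scaling the LINC genes had 5 higher and 0 lower on chromosome 2, beside 70 higher and 54 lower of the others, and 1 higher and 6 lower on chromosome 14, beside 46 higher and 19 lower. Scaling to sums left the LINC counts of chromosomes 2 and 14 as they were. Beside them were 158 higher and 38 lower of the others on chromosome 2 and 144 higher and 10 lower on chromosome 14. On chromosome 7, LINC02604 and LINC03060 were no longer called lower after scaling to sums, at -0.88 and -0.91. Other genes of chromosome 7 were not counted after rescaling. On chromosome 2 the near-copies LINC01106 and LINC01123 may share reads, and LINC01291 and LINC01293 lie side by side, so these are not separate observations. The same holds for LINC01303 and LINC03033 among the lower calls on chromosome 14, which overlap on opposite strands and may share reads. Without HCC827_Er replicate 3 LINC01303 was not called.

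LINC02617 shows how shared sequence limits a call. Of its longest transcript 53.3% aligns with LINC02582, at up to 95.9% identity, and 53.0% with ESRG, at up to 97.7% identity, a transcript derived from an endogenous retrovirus and known from pluripotent stem cells. LINC02617 had 0.59, 0.67 and 0.79 FPKM in HCC827_Er and 2.33, 3.01 and 2.35 FPKM in HCC827 and was called lower with a difference of -1.08. The call was lost at -0.99 without HCC827 replicate 2 and at -0.94 after scaling to library sums. ESRG averaged 119 FPKM in HCC827_Er and 492 FPKM in HCC827, a difference of -2.04, so both abundant relatives fell as well and reads of LINC02617 are uncertain.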

How the data were processed

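Libraries of total RNA, 3 of HCC827_Er and 3 of HCC827, were made with a TruSeq kit from Illumina, per the labels. The deposited table holds FPKM for every listed gene in each library and no counts, so depth and counting error are unknown. Per the submitters' processing notes, fastp, HISAT2 and StringTie were used, and GRCh38.p14 and hg19 are named without roles. The sources used here give no versions, annotation, strandedness or rule for which genes were listed. The table's columns were mapped by name.

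Symbols were matched by identifier for 6636 of 6641 genes. Positions come from GENCODE 29 on GRCh38, which need not be the authors' annotation, and promoters from RefSeq on GRCh38.p14. The deposited FPKM were transformed to log2(FPKM + 1) and modelled in R 4.3.3 by limma 3.58.1 (cell line as the only term, eBayes with trend) for genes with at least 1 FPKM in 3 libraries, with Benjamini-Hochberg adjustment over all genes. The steps were tested on simulated data. The changes planted there were larger than the limit of 1 and lay only in genes above a set level. Changes near the limit and the low levels of many LINC genes were therefore not covered. Exact tests of 3 against 3 libraries cannot go below p = 0.10 and were not used. Near-identical copies were sought with BLAST 2.17.0 (at least 95% identity over 50% of the transcript).

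The members and lists were chosen with earlier results of these data known. Named are the 12 largest called rises and falls, genes found in 1 line only, the 5 most abundant, 2 on each side of the minimum difference, some lung carcinoma LINC genes, up to 4 other long noncoding RNAs each way, and neighbours; others are said to be chosen afterwards.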

Additional observations from a re-analysis of the deposited data

How the results depend on the processing

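The calls of LINC genes depend most on the pseudocount and on the size required, and less on single libraries. Against 28 called higher and 31 called lower, a pseudocount of 5 gave 6 higher and 10 lower, and a pseudocount of 0.1 gave 43 higher. Leaving out the minimum size gave 49 higher and 52 lower, and median-ratio scaling gave 18 higher. Over all tested genes, 1304 higher and 1041 lower became 579 and 506 at a pseudocount of 5. The higher calls over all became 1705 at a pseudocount of 0.1 and 896 after median-ratio scaling. Leaving out LINC genes that overlap another gene left 16 higher and 16 lower, which removes genes and changes no call. Leaving out 1 library at a time gave between 27 and 29 higher and between 29 and 32 lower, and 49 of the 59 called genes were called each time. Found in 1 line only were 2 genes for HCC827_Er and 2 for HCC827. These became 6 and 5 when 0.5 FPKM counted as found, and 1 and 1 when only 0 counted as not found. Median-ratio scaling gave 1 for HCC827_Er. Removing the overlapping genes, which changes no value, left 1 and 0. Without single libraries these counts ran between 2 and 5 for HCC827_Er and between 2 and 4 for HCC827. The difference of LINC01569, which was not called, changed sign to 0.0791 after scaling to library sums, and ran between -0.233 and 0.0410 without single libraries, with its positive value without HCC827_Er replicate 3. The cause of these shifts was not tested. Over the 54 named and tested LINC genes, 695 of 756 alternative values kept direction and call, 48 lost the call, 11 gained one and 2 changed sign. Fits with another level minimum, without trend or with the replicate number as a block keep each difference as it was. In those fits only the adjusted p could change, so their values add to the 695 by design.

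A fit with the replicate number as a block called the same 28 and 31. Each number occurs once in each line, so the block leaves every difference as it was. The equal counts therefore cannot show whether pairing matters. The numbers are not shown to pair the libraries: deviations of same-numbered libraries correlated at 0.11, -0.02 and 0.05, and not every library correlated best with its own number. The depth is unknown, so levels under about 1 FPKM, where 38 LINC genes stay, carry an error that cannot be given.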

Other observations

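Long noncoding RNA genes with other names moved in both directions as well. Of 102 such names on a list of microRNA hosts, snoRNA hosts and well-studied long noncoding RNAs, 30 were listed, 27 were tested, 10 were called higher in HCC827_Er and 3 lower, with a median difference of 0.85 beside 0.43 over all tested genes. Scaling changes this split, to 8 higher and 7 lower with median ratios and 13 higher and 2 lower with library sums. H19, an imprinted transcript of fetal tissue, averaged 17.7 ± 4.06 FPKM in HCC827_Er and 0.0300 ± 0.0520 FPKM in HCC827 (SD, n = 3 each). MIR205HG, the host of an epithelial microRNA, averaged 8.003 ± 0.685 FPKM in HCC827_Er and was listed at 0 in all HCC827 libraries. PCAT1 averaged 29.3 ± 3.15 FPKM in HCC827_Er and 6.32 ± 1.05 FPKM in HCC827, and MIR3142HG averaged 11.9 ± 1.21 FPKM in HCC827_Er and 2.82 ± 0.107 FPKM in HCC827. Those that fell were UCA1, first described in urothelial carcinoma, at 316 ± 13.8 FPKM in HCC827_Er and 769 ± 16.4 FPKM in HCC827, MIR22HG at 7.56 ± 0.610 FPKM in HCC827_Er and 22.1 ± 0.135 FPKM in HCC827, and SNHG26 at 9.73 ± 0.601 FPKM in HCC827_Er and 22.9 ± 1.495 FPKM in HCC827. UCA1 was more abundant than any LINC gene in both lines.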
